A study of Mus musculus with 7 samples.

Results

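The libraries e, f and g were compared with the libraries a, b, c and d in cultured mouse lung endothelial cells (MLEC), all 7 libraries of the series. The 2 sets were noticed in the measured values and cut across genotype: e and f are WT and g is KO, whereas a and c are WT and b and d are KO. The labels do not name these sets, and what they share beyond their letters is unknown. The genes compared were chosen by the same values, as those above 0 in all 7 libraries with a mean of at least 1 FPKM (fragments per kilobase of transcript and M mapped reads), and 10981 of the 38472 entries of the table remained after repeated entries were merged. Just inside this limit lay an entry without a gene symbol, with a mean of 1.00024 FPKM, and just outside it lay Spr-ps1 with a mean of 0.999814 FPKM. Since the grouping was selected on these values, every difference between e, f, g and a to d is given as a description with no test.

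WT and KO cells came from C57BL/6 mice. In the KO mice, a floxed Adm gene is cut by Cre recombinase driven by the promoter of Cdh5, the gene of VE-cadherin, so the deletion is directed to endothelial cells and lymphatic endothelium is included where it expresses Cdh5. The WT libraries are labelled wild type and nothing further is given on their alleles. The cells were taken from lung with beads against PECAM-1, grown, sorted again with beads against ICAM-2 and kept in culture for further passages, and mRNA was sequenced from them. The study's methods describe lungs of several mice per isolation, a range of passages and indexed libraries pooled within a lane. Which mice, passage or lane belong to each library is not given. Ages, the sharing of animals between libraries and the dates of culture are not given in the sources used here, so the spread between libraries may be technical in part.

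Endothelial cells taken from a tissue change in culture. They leave the quiescent state of the vessel wall and enter the cell cycle, and they lose part of the signals of flow, pericytes and matrix that set arterial, venous and capillary identity. Adhesion molecules such as E-selectin and VCAM-1 are low in resting endothelium and are induced by inflammatory cytokines. Immediate early genes such as Fosb and Egr1 respond within minutes to serum, growth factors and handling.

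Adm, the gene of adrenomedullin and the target of the deletion, was at 48.2, 9.31, 70.1 and 17.2 FPKM in a to d and 76.1, 43.8 and 0.75 FPKM in e, f and g. Every KO library lay below every WT library, and this held within a to d and within e, f and g. The markers used to isolate the cells were high in all 7 libraries, with Pecam1 at 372 to 454 FPKM in a to d and 364 to 444 FPKM in e, f and g. Icam2 was at 105 to 122 FPKM in a to d and 111 to 138 FPKM in e, f and g, and Cdh5 at 259 to 393 FPKM in a to d and 281 to 394 FPKM in e, f and g. Xist was listed at 0 in all 7 libraries, and the 4 Y-linked genes measured overlapped between the sets. Estimated depth was 6.8 to 8.15 M reads per library, and the sum of FPKM was 544847 to 563134 in 6 libraries and 516082 in e. The genotypes were compared over the same 10981 genes with limma, and 0 were called at FDR 0.1 (0% of genes), with 273 at an unadjusted p under 0.05 and a lowest adjusted p of 0.955. With the library set as a term in limma there were also 0 calls, with 372 at an unadjusted p under 0.05. These fits treat the libraries as unpaired and leave out genes listed at 0 in any library. Prom1, above 0 in every WT library and listed at 0 in every KO library, was thus not tested. Calls with zeros allowed are given below. Adm itself was not called, with a log2 fold change of -3.10 (SE 0.71) and adjusted p = 0.955 from limma without the term. A gene that was not called is not thereby shown to be equal in the genotypes.

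Mcam encodes CD146, an adhesion molecule of endothelial junctions that the study's methods use to check the purity of the cells by flow cytometry. By its own test the study reports Mcam, Adm, Lyve1, Prom1 and Lcn2 as lower in KO cells and Prl2c2 as higher. On GRCm38 it lies on chromosome 9 from 44134469 to 44142727. Here and throughout, the values of a to d and of e, f and g are given in the order of the letters. Mcam was at 31.4, 36.2, 54.1 and 40.9 FPKM in a to d and 198, 184 and 101 FPKM in e, f and g. All values of e, f and g lay above all values of a to d, and the median was 4.78 times as high. The difference was 2.18 in WT and 1.37 in KO on the log2(FPKM + 1) scale, and it was 1.80 between the medians without library e against 2.23 with it. In the comparison of genotypes Mcam had a log2 fold change of -0.74 (SE 0.69), with adjusted p = 0.955 from limma. The library sets hold unequal shares of WT and KO libraries, so this estimate includes part of the set difference. With the library set as a term in limma it was -0.43, with adjusted p = 0.938.

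The label of 3 libraries against 4 was only partly borne out by the whole profile. Across the genes compared, f and g were the closest libraries to each other (Pearson r = 0.988), as were a and b (r = 0.991) and c and d (r = 0.989). Each of these pairs holds a WT and a KO library. Library e stood apart from all 6 others, with r of 0.937 to 0.951. The first principal component, with 47.8% of the variance, gave e a loading of 0.90 and the other libraries loadings of -0.28 to -0.02. The second, with 26.6%, separated f (0.68) and g (0.45) from a to d (-0.41 to -0.13), and e (-0.09) lay beside a to d on it. The genes are not independent replicates, and these values are descriptions. Results are therefore given with and without e where the 2 differ.

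**Figure D1:**
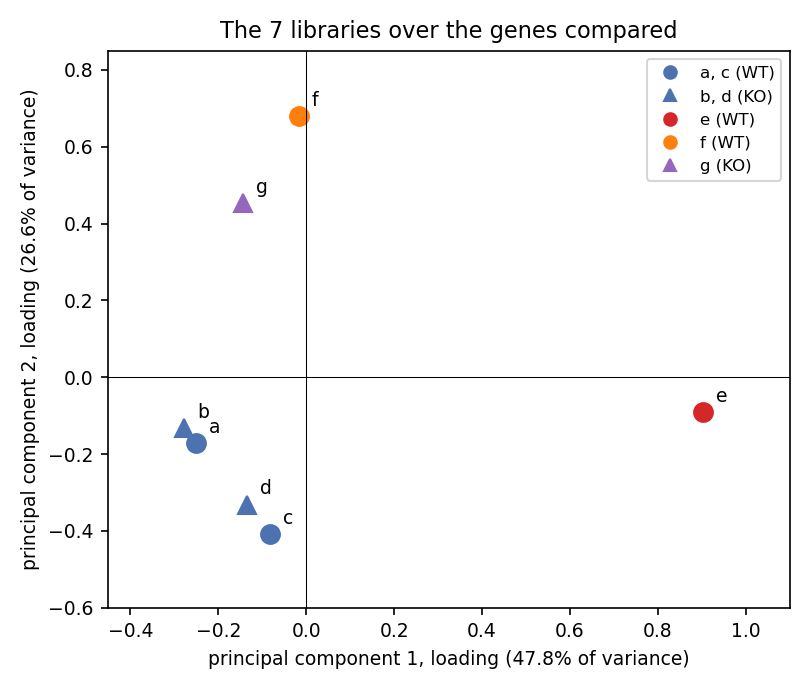
Loadings of the 7 libraries on the first 2 principal components of log2(FPKM + 1) over 10981 genes, with circles for WT and triangles for KO. Library e lies alone at 0.90 on the first component, and f and g lie together at 0.68 and 0.45 on the second.

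Of the 10981 genes, 1501 were higher in all of e, f and g than in all of a to d (13.7%) and 867 were lower (7.9%). These shares restate the values that chose the grouping. Most of the differences were small: the median ratio of the set medians was 1.30 among the higher genes and 1.26, a to d over e, f and g, among the lower genes. A gap of at least 0.5 log2 between the nearest libraries of the sets was found for 56 higher genes (0.51%) and 38 lower genes (0.346%). Deposited FPKM were used without further scaling. The median difference over all genes was then 0.04, and the share of higher genes among those with the sets apart was 63.4%. It was 75.0% for TPM, 50.3% after quantile normalization and 46.5% with trimmed mean factors, so neither direction prevailed under every scaling. Without e, 2557 of the 10981 genes were higher and 1607 lower in f and g than in all of a to d. Counts of list members for f and g alone are to be held against these.

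Among the genes higher in e, f and g, the largest gap was that of Cthrc1, a secreted glycoprotein of remodelling matrix, on chromosome 15 from 39076932 to 39087121. Cthrc1 was at 7.12, 9.31, 4.36 and 6.74 FPKM in a to d and 40.9, 83.7 and 33.4 FPKM in e, f and g. The lowest of e, f and g, g, was above 3 times the highest of a to d. Smoc1, a matricellular protein that binds calcium, was at 3.62, 2.91, 2.09 and 2.2 FPKM in a to d and 21.8, 23 and 11.5 FPKM in e, f and g. Here a to d lay close together, and e and f lay above g. Col3a1, a fibrillar collagen, was at 3.02, 5.6, 2.86 and 4.82 FPKM in a to d and 18.4, 31.4 and 14.8 FPKM in e, f and g. It was highest in f and lowest in WT a and c. Cd200, a surface glycoprotein whose receptor is on myeloid cells, was at 13.2, 10.6, 23.1 and 12.6 FPKM in a to d and 241, 75.7 and 48.8 FPKM in e, f and g. Library e was far above f and g, and f and g were above all of a to d.

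Vcam1, the adhesion molecule that binds leukocyte integrin VLA-4, was at 16.4, 28.5, 28.6 and 32.6 FPKM in a to d and 65.7, 89.4 and 90.8 FPKM in e, f and g. Its values in f and g were alike, and e lay between these and a to d. Casp1, the protease that matures interleukin-1 beta, was at 1.11, 2.8, 3.5 and 3.05 FPKM in a to d and 14, 19.4 and 9.81 FPKM in e, f and g. The lowest value of all was in WT a and the highest in WT f. Mest, an imprinted gene expressed from the paternal allele, was at 45.8, 66.3, 55.4 and 41.9 FPKM in a to d and 202, 159 and 141 FPKM in e, f and g. Ets2, a transcription factor of the ETS family, was at 8.52, 7.91, 7.97 and 8.56 FPKM in a to d and 19.9, 18.2 and 17.5 FPKM in e, f and g, with all libraries of a set close to each other. The transcription factor Mecom was at 3.89 to 6.26 FPKM in a to d and 12.7 to 23.1 FPKM in e, f and g. The matricellular protein Wisp2 was at 0.603 to 0.88 FPKM in a to d and 2.45 to 9.54 FPKM in e, f and g, with e highest. Pcdh17, a protocadherin, was at 0.506 to 1.06 FPKM in a to d and 3.2 to 5.98 FPKM in e, f and g. Pamr1, a secreted protein with a peptidase domain, was at 1.25 to 2.04 FPKM in a to d and 5.59 to 8.37 FPKM in e, f and g. In both Pcdh17 and Pamr1 the values of a to d were near 1 or 2 FPKM, where log2(FPKM + 1) understates the ratio. Cyp1a1, a target of the aryl hydrocarbon receptor, was at 1.47 to 2.4 FPKM in a to d and 5.4 to 10.1 FPKM in e, f and g and was highest in KO g.

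Among the genes lower in e, f and g, the largest gap was that of Fosb, a subunit of the AP-1 transcription factor, on chromosome 7 from 19302696 to 19310051. Fosb was at 9.62, 6.91, 5.05 and 8.36 FPKM in a to d and 0.729, 0.604 and 0.61 FPKM in e, f and g. The ratio of the medians, a to d over e, f and g, was 12.5, and e, f and g were alike. Tfpi2, a secreted inhibitor of serine proteases such as plasmin, lies on chromosome 6 from 3962595 to 3988919. It was at 127, 98.6, 147 and 91.9 FPKM in a to d and 28.4, 22.8 and 25.1 FPKM in e, f and g. Its medians differed 4.48 times, and again e, f and g were alike. Meox1, a homeobox transcription factor, was at 26.6, 22.3, 27.4 and 23.8 FPKM in a to d and 6.7, 5.36 and 10.4 FPKM in e, f and g. Cryab, a small heat shock protein, was at 414, 378, 409.6 and 382 FPKM in a to d and 72.2, 188 and 185 FPKM in e, f and g. For Cryab, a to d lay within a narrow range, f and g were alike, and e was lower still.

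Several of the leading lower genes had narrow ranges in a to d. Fhl2, a LIM domain protein of actin and integrin signalling, was at 101, 99.2, 101 and 100.4 FPKM in a to d and 47, 52.5 and 60.2 FPKM in e, f and g, so that the 4 values of a to d were nearly equal. Rgs16, which turns off signals of G protein-coupled receptors, was at 140.2 to 162 FPKM in a to d and 45.1 to 79.7 FPKM in e, f and g. Its relative Rgs17 was at 6.58 to 7.63 FPKM in a to d and 2.83 to 3.59 FPKM in e, f and g. Ptgs2, the inducible cyclooxygenase COX-2, was at 244, 227, 251 and 262 FPKM in a to d and 125, 105 and 135 FPKM in e, f and g. Its values were alike within each set. Maff, a small MAF transcription factor, was at 141 to 159.9 FPKM in a to d and 67.7 to 75 FPKM in e, f and g. Kctd11, a BTB domain protein, was at 27.5 to 32.7 FPKM in a to d and 7.36 to 10.9 FPKM in e, f and g. Ppp1r13l, which binds p53, was at 12.4 to 13.3 FPKM in a to d and 4.87 to 6.82 FPKM in e, f and g. These 3 genes had no library of e, f and g near the range of a to d. The ubiquitin ligase Rnf19b was at 64.6 to 70.5 FPKM in a to d and 33.9 to 38.1 FPKM in e, f and g, and nocturnin, Ccrn4l, at 41.3 to 45.2 FPKM in a to d and 13.8 to 25.1 FPKM in e, f and g. Akr1b3, aldose reductase, was at 228, 146, 227 and 164 FPKM in a to d and 62.5, 78.7 and 43 FPKM in e, f and g, with WT a and c above KO b and d. How reads shared by Akr1b3 and its pseudogenes were divided is not given in the sources used here, so its level is uncertain. Predicted genes were not named, and 1 of them lay above the 15th gap among the higher genes and 3 among the lower.

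**Figure D2:**
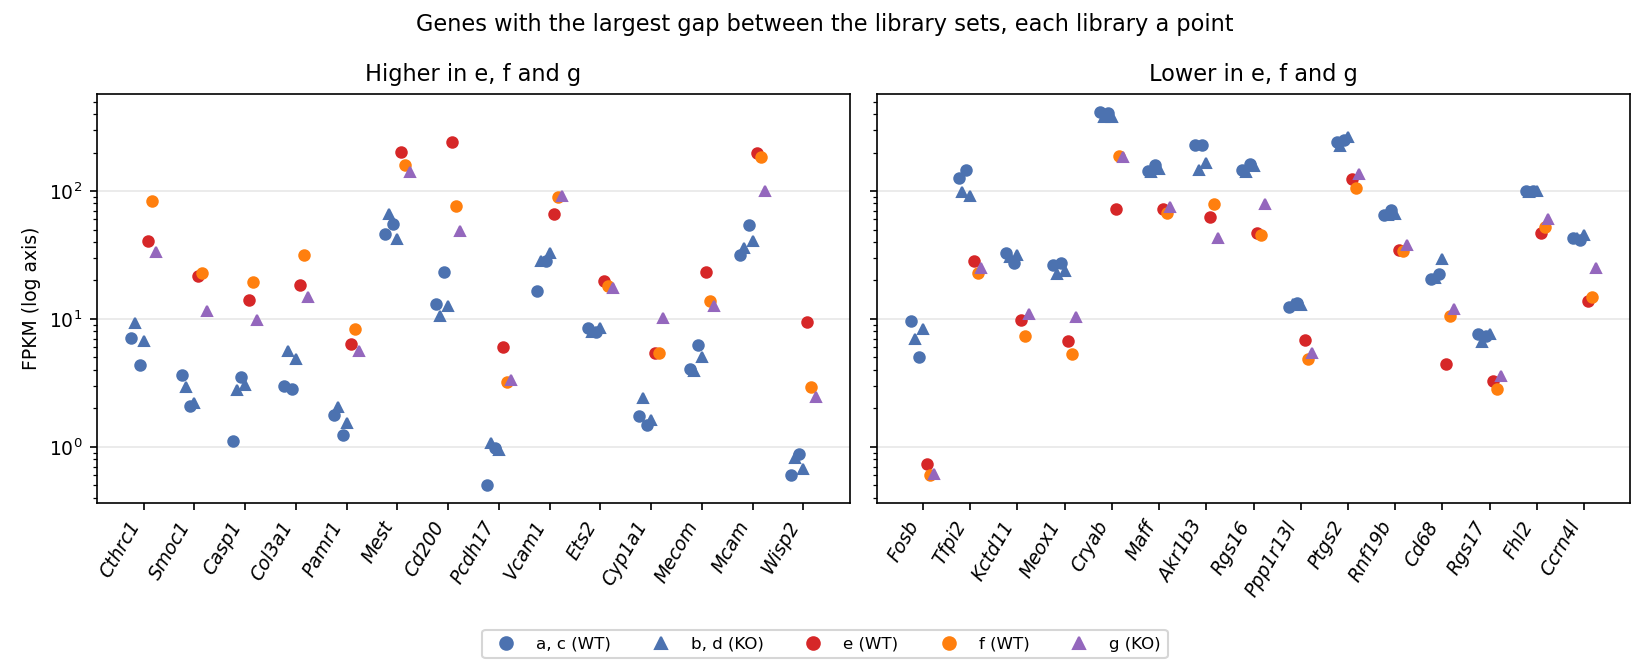
FPKM on a log axis of the named genes with the largest gaps, 14 higher and 15 lower, with 1 point per library, circles for WT and triangles for KO. In every gene the 3 coloured points of e, f and g lie on one side of the 4 blue points of a to d, which is how the genes were selected. Within a set, WT and KO libraries lie apart for some genes, such as Mcam in e, f and g and Akr1b3 in a to d.

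The set difference can be taken within WT (e and f against a and c) and within KO (g against b and d), and these share no library. Across the 10981 genes the differences within WT and within KO had r = 0.45. With f alone for WT r was 0.65, and with e alone it was 0.18. The agreement of the genotypes in the library sets was thus mainly that of f with g. For genes with the sets apart the direction in WT and KO is the same by construction. Cthrc1 differed by 3.17 in WT and 1.95 in KO, Fosb by -2.27 in WT and -2.42 in KO and Tfpi2 by -2.37 in WT and -1.88 in KO. Adm, whose deletion defines the KO cells, differed by -0.01 in WT and -2.97 in KO, since g had the lowest Adm of the KO libraries. The KO side rests on the 1 library g and has no replicate.

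**Figure D3:**
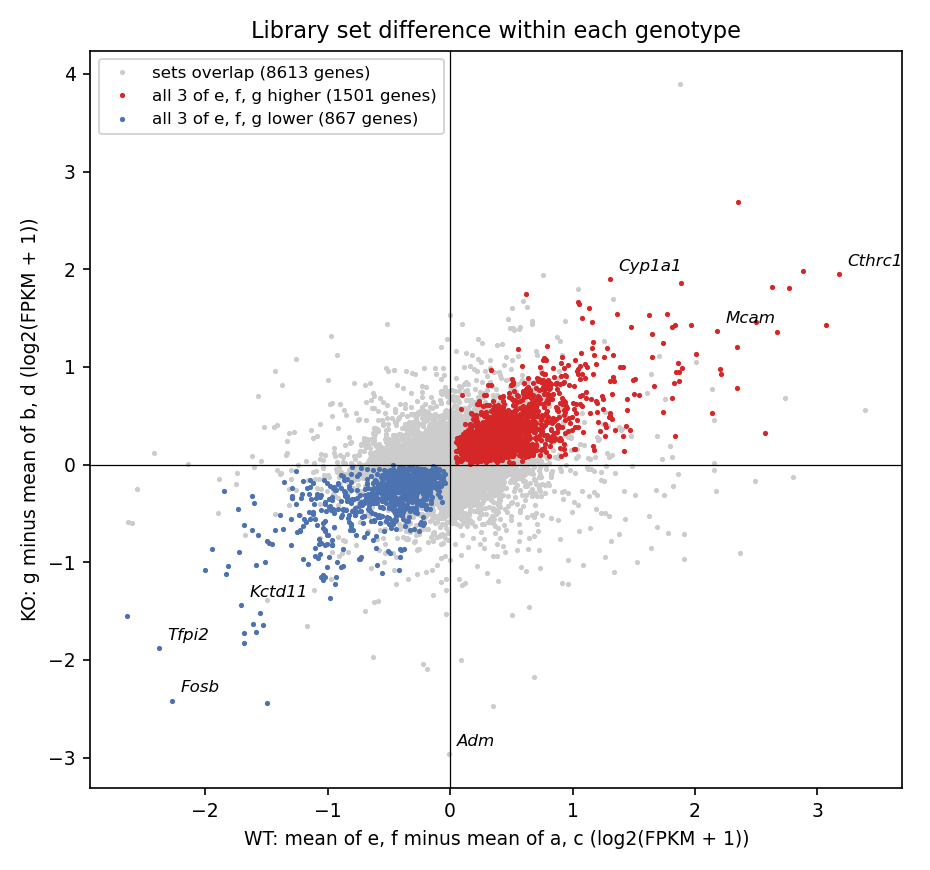
Difference between the library sets within WT on the horizontal axis and within KO on the vertical axis, in log2(FPKM + 1), with 1 point per gene. Genes with the sets apart are coloured and lie in 2 opposite quadrants by construction, and over all points r was 0.45.

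Of the lists compared, the genes of mitosis had the highest share of members above a to d. The protein MKI67 marks cycling cells, cyclin B with CDK1 starts mitosis, BUB1B holds the spindle checkpoint and CENPF sits on kinetochores. Of 26 mitotic genes 25 were compared, and 16 were higher in all of e, f and g and 0 were lower, beside 13.7% and 7.9% of all genes. These are also the shares for the counts of e, f and g in every other list. Counts for f and g alone, or under another setting, are to be held against all genes in that comparison. The median difference was 0.79, against 0.04 over all genes, and it was 0.74 in WT and 0.77 in KO. In f and g, 25 of 25 lay above all of a to d, whereas e alone had a median difference of 0.36 from a and c. Thus the mitotic genes followed f and g on all members and e on a part of them.

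Mki67 lies on chromosome 7 from 135689784 to 135716361. It was at 8.01, 7.74, 6.23 and 6.36 FPKM in a to d and 10.7, 19.8 and 14.1 FPKM in e, f and g. Library f was highest, then g, then e, and all of a to d were below 10 FPKM. Cdk1 was at 72.3, 70.1, 49.97 and 64.3 FPKM in a to d and 80.02, 138 and 118 FPKM in e, f and g. Top2a, the topoisomerase that untangles sister chromatids, was at 18.6, 18, 16.1 and 15.3 FPKM in a to d and 22.5, 41.1 and 32.5 FPKM in e, f and g. Both genes had the same order, f over g over e. Cenpf was at 1.8, 1.75, 1.42 and 1.65 FPKM in a to d and 2.95, 4 and 3.6 FPKM in e, f and g. Bub1b was at 6.07, 4.73, 5.46 and 5.52 FPKM in a to d and 8.84, 12.5 and 9.07 FPKM in e, f and g. For Bub1b, e and g were alike. Ccnb1, cyclin B1, was at 6.27, 6.79, 4.68 and 5.6 FPKM in a to d and 5.37, 13.4 and 9.94 FPKM in e, f and g, so e lay within the range of a to d and the sets overlapped.

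**Figure D4:**
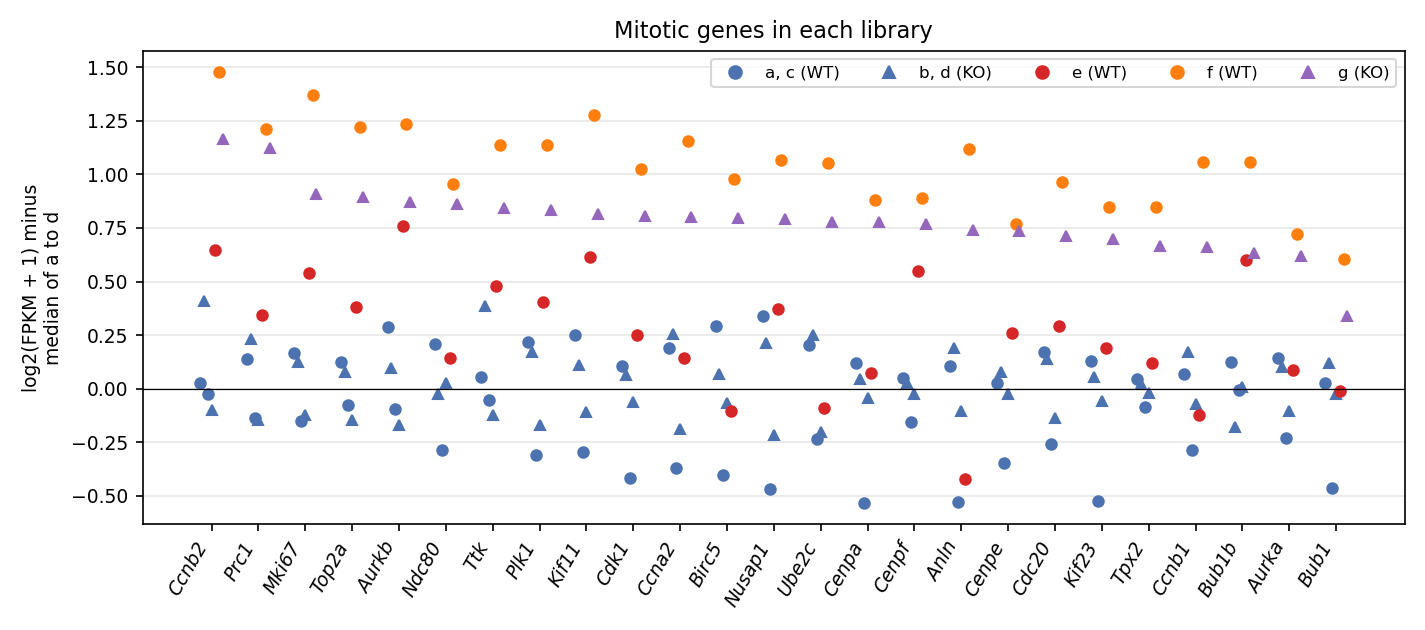
log2(FPKM + 1) minus the median of a to d for the 25 mitotic genes, with 1 point per library. Points of f and g lie above those of a to d in all 25 genes, and those of e lie above them in 16.

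Mitotic genes are known to share CCAAT boxes, which bind NF-Y, and the cell cycle homology region (CHR), which binds the DREAM and B-MYB complexes. RefSeq promoters (GRCm38.p6) of 250 bases before to 50 after the start matched 22 of the 25 genes. CCAAT or its complement ATTGG stood in 18 of the 22 (81.8%) and in 41.1% of the 27025 genes with a promoter in the table. The CHR letters TTTGAA or their complement TTCAAA stood in 17 of the 22 (77.3%) and in 20.2% of all. Both stood in 15 of the 22 (68.2%) and in 9.0% of all, a description that names no bound site. Among the mitotic genes with a promoter in the table, those of the 3 with the largest gap between the library sets are shown for the arrangement of these letters, 5′ to 3′ on the strand of the gene, with the letters found in capitals. They lie on GRCm38.p6 at chr1:189688037-189688336 on the minus strand for Cenpf, chr2:118597961-118598260 on the plus strand for Bub1b and chr7:135716330-135716629 on the minus strand for Mki67.
Cenpf: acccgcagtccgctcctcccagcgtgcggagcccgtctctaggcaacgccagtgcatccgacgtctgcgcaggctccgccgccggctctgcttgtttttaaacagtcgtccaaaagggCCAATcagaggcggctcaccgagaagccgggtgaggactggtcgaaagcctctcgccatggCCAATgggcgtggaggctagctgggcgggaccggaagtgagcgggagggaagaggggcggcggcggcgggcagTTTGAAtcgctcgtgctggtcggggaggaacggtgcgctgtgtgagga
Bub1b: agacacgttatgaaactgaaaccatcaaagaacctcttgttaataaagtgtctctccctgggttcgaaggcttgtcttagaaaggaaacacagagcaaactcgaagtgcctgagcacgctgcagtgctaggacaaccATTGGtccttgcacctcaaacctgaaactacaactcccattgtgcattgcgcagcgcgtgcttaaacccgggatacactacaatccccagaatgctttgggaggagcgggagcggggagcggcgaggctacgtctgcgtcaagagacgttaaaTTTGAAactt
Mki67: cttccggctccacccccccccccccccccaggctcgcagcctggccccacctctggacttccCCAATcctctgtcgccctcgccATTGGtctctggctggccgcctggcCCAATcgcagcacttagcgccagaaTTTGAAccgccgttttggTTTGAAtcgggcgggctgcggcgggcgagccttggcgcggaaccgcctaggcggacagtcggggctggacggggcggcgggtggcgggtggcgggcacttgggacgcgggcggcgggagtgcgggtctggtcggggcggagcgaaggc
Cenpf held 2 CCAAT boxes and 1 CHR, Bub1b 1 of each, and Mki67 3 CCAAT boxes and 2 CHR. In each of the 3 the CHR stood downstream of the CCAAT boxes.

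Genes of the G1/S transition and of DNA replication were higher to a smaller extent. Of 18 compared, 7 were higher and 0 lower, with a median difference of 0.33 (0.36 in WT and 0.27 in KO), and in f and g 13 of 18 lay above all of a to d. Mcm6, a subunit of the replicative helicase, was at 14.2, 12.2, 11.8 and 12.4 FPKM in a to d and 19.6, 22.7 and 20.3 FPKM in e, f and g. Pcna, the sliding clamp of DNA polymerase, was at 32.1, 31.3, 32 and 33.7 FPKM in a to d and 40.4, 48.2 and 39.8 FPKM in e, f and g. For both the sets lay apart and f was highest. Cdc45, a subunit of that helicase with MCM and GINS, was at 6.41 to 8.29 FPKM in a to d and 10.4 to 10.7 FPKM in e, f and g. Of the other helicase genes, Mcm2 was at 13.6 to 15.9 FPKM in a to d and 17.5 to 24.5 FPKM in e, f and g, and Mcm10 at 2.37 to 4.18 FPKM in a to d and 4.71 to 5.7 FPKM in e, f and g.

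The inhibitors of cyclin-dependent kinases and targets of p53 went the other way in part. Of 20 compared, 6 were lower in e, f and g and 0 higher, with a median difference of -0.21. Cdkn1a, the inhibitor p21, was at 253, 259, 260.2 and 252 FPKM in a to d and 159, 164 and 185 FPKM in e, f and g. Mdm2, the ubiquitin ligase of p53 and itself a p53 target, was at 201, 158, 166 and 179 FPKM in a to d and 66.8, 100.5 and 114 FPKM in e, f and g. Cdkn1a had a narrow range in a to d, and Mdm2 was lowest in e. Cdkn2a, the locus of p16 and p19ARF, was at 125, 148, 191 and 185 FPKM in a to d and 71.6, 102 and 119 FPKM in e, f and g, and g lay close below the lowest of a to d. Pmaip1, the p53 target NOXA, was at 25.4 to 32.2 FPKM in a to d and 12.1 to 21.5 FPKM in e, f and g, and Sesn2 at 14.9 to 18 FPKM in a to d and 11.1 to 13.9 FPKM in e, f and g.

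Transcripts of replication-dependent histones, which mostly lack a poly(A) tail and are poorly caught by poly(A) selection, did not follow the mitotic genes. Of 34 compared 6 were lower and 0 higher, with a median difference of -0.40. The median was -1.09 for e and -0.23 for f against a and c, and -0.22 within KO, so that e had the largest part of it. Hist1h1c, a linker histone, was at 95, 96.4, 86.2 and 103 FPKM in a to d and 32.5, 47.9 and 65.8 FPKM in e, f and g.

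Immediate early genes were lower in f and g. Of 19 compared, 5 were lower in e, f and g and 0 higher, with a median difference of -0.32, and 15 were lower in f and g than in all of a to d. Library e had a median difference of 0.17 from a and c, in the opposite direction to f (-0.39). The 5 were Fosb, Maff, Egr1, Dusp1 and Fosl1. Egr1, a zinc finger transcription factor, was at 28.2, 22.8, 22.4 and 23.9 FPKM in a to d and 17.1, 3.74 and 3.49 FPKM in e, f and g. Libraries f and g lay far below the others, and e lay only a little below a to d. Dusp1, a phosphatase of MAP kinases, was at 125, 126, 130.4 and 127 FPKM in a to d and 79.96, 109 and 85.8 FPKM in e, f and g. Fosl1, an AP-1 subunit, was at 34.7 to 45.8 FPKM in a to d and 19.3 to 32.2 FPKM in e, f and g. Atf3, a stress-induced transcription factor, had overlapping sets, at 17.3 to 23.1 FPKM in a to d and 13.4 to 22.7 FPKM in e, f and g.

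Transcripts encoded by mitochondrial DNA were lower in e, f and g. Of 13 compared, 10 were lower and 0 higher, with a median difference of -0.30 (-0.27 in WT and -0.35 in KO), and they took 5.38 to 5.82% of all FPKM in e, f and g and 6.37 to 7.43% in a to d. After quantile normalization, which gives the highest ranks the same values in all libraries, 2 of 13 were lower and 0 higher, and for TPM 6 were lower. mt-Co1, a subunit of cytochrome c oxidase, was at 5313, 5759.9, 5822 and 6128 FPKM in a to d and 4134, 4264 and 4440.1 FPKM in e, f and g. mt-Nd5, of complex I, was at 681, 699, 659 and 745 FPKM in a to d and 515, 607 and 553 FPKM in e, f and g. The nuclear genes of the respiratory chain had 25 of 68 lower and 1 higher, with a median of -0.12, and here e (-0.52 against a and c) differed more than f (-0.11). Ndufb2, of complex I, was at 102 to 124 FPKM in a to d and 60.2 to 85.7 FPKM in e, f and g. Uqcr10, of complex III, was at 299 to 329 FPKM in a to d and 189 to 267 FPKM in e, f and g.

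**Figure D5:**
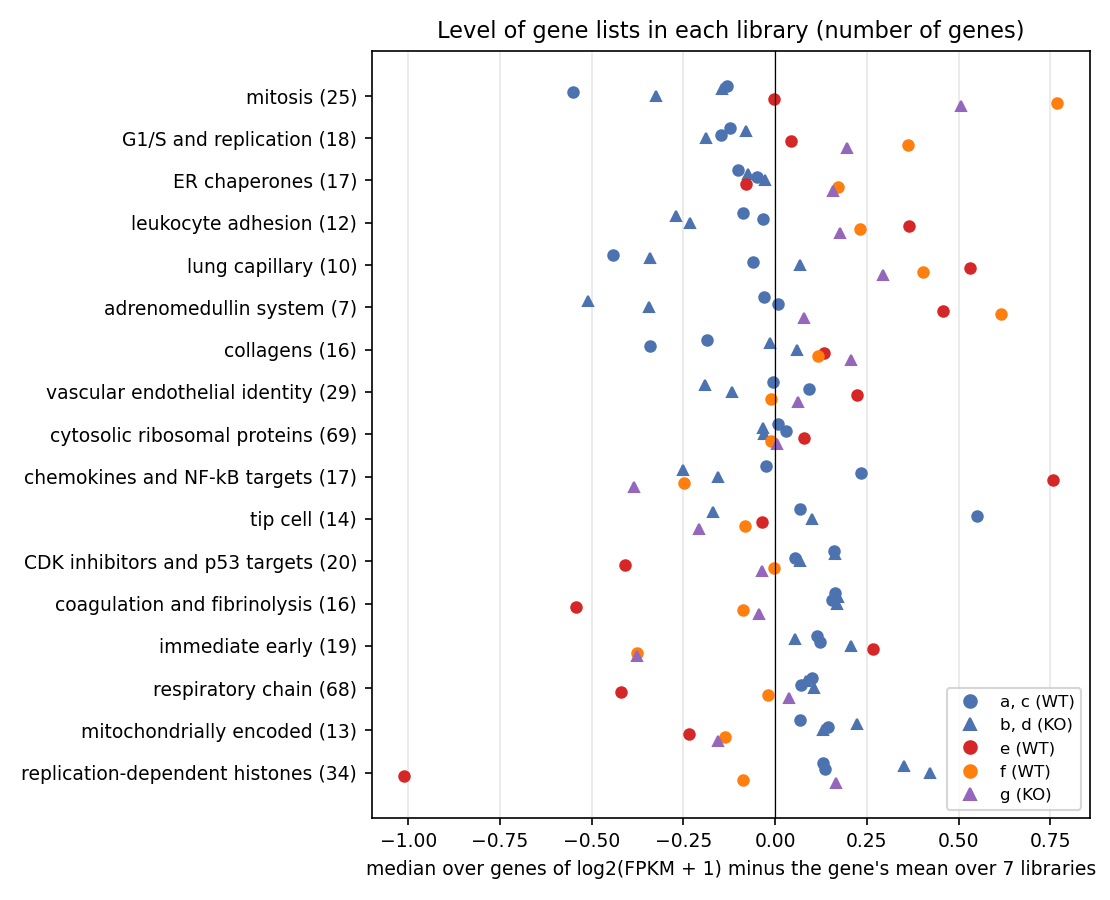
Level of 17 gene lists in each library, as the median over genes of log2(FPKM + 1) minus the gene's mean over the 7 libraries, with the number of genes compared in parentheses. Mitotic genes are highest in f and g (0.77 and 0.51), immediate early genes lowest in f and g (-0.38 in each), and histones lowest in e (-1.01).

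Of the markers of vascular endothelium 29 of 31 were compared, and 8 were higher and 3 lower in e, f and g, with a median difference of 0.10. The sum of FPKM over the 31 was 4921 to 6159 in a to d and 5315 to 5534 in e, f and g, so the list as a whole overlapped. Besides Mcam, Fli1, a transcription factor of the ETS family, was at 7.2, 7.11, 6.42 and 6.13 FPKM in a to d and 20.6, 16.1 and 9.69 FPKM in e, f and g. Its relative Erg was at 70.6, 65.5, 69.3 and 61.3 FPKM in a to d and 87.1, 79.98 and 79.5 FPKM in e, f and g, with less distance between the sets. Nos3, the endothelial nitric oxide synthase, was at 33.6, 23.7, 31.7 and 19.4 FPKM in a to d and 35.4, 48.1 and 43 FPKM in e, f and g. Within a to d the KO libraries b and d were lower than a and c. Esam, an adhesion molecule of tight junctions, was at 96.5 to 121 FPKM in a to d and 134 to 170.0 FPKM in e, f and g. Plvap, the protein of the diaphragm of fenestrae and caveolae, was lower, at 579, 540.4, 757 and 651 FPKM in a to d and 271, 393 and 396 FPKM in e, f and g. Robo4, a guidance receptor that stabilizes vessels, was also lower, at 49.9 to 59.8 FPKM in a to d and 38.2 to 43.4 FPKM in e, f and g.

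Markers of lung capillaries and of vessel type were compared next. Of 10 capillary genes 4 were higher and 1 lower, with a median of 0.60. Ednrb, the endothelin B receptor, which clears endothelin in lung vessels, was at 6.61, 4.29, 6.19 and 4.53 FPKM in a to d and 11.9, 20.3 and 9.25 FPKM in e, f and g. Ptprb, the phosphatase VE-PTP that restrains TIE2, was at 20.6, 23.4, 22.1 and 19.8 FPKM in a to d and 31.1, 61.9 and 38.2 FPKM in e, f and g. Library f was highest in both. Gpihbp1, the platform of lipoprotein lipase, was at 0.66 to 2.27 FPKM in a to d and 2.33 to 10.9 FPKM in e, f and g, with f and g just above a to d and e far above. The semaphorin Sema3c was at 3.08 to 7.72 FPKM in a to d and 11.7 to 21.3 FPKM in e, f and g. Of 9 arterial and venous genes 3 were higher and 1 lower. Nr2f2, the venous transcription factor COUP-TFII, was at 12.3 to 18.1 FPKM in a to d and 19.3 to 31.6 FPKM in e, f and g. Bmx, an arterial kinase, was at 0.401 to 1.51 FPKM in a to d and 1.95 to 5.14 FPKM in e, f and g, so that genes of either vessel type were among the higher ones.

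Of 14 genes of tip cells, the leading cells of a sprout, 5 were lower and 2 higher, Mcam being 1 of the 2. The median difference was -0.26, but 0.06 over the 8 genes whose deposited interval covers at least 90% of the gene. Esm1, a proteoglycan secreted by tip cells, was at 193, 203, 209 and 216 FPKM in a to d and 47.6, 74.8 and 152 FPKM in e, f and g. Pgf, placental growth factor, was at 75.2, 78, 112 and 113 FPKM in a to d and 44, 43.4 and 53.4 FPKM in e, f and g. Pdpn, podoplanin, a lymphatic marker, was at 99.7, 92.6, 72.9 and 76.8 FPKM in a to d and 24.5, 32.4 and 50.7 FPKM in e, f and g. In all 3 genes the 4 libraries of a to d lay above e, f and g, and g lay nearest to them. Flt4, the receptor of VEGF-C, was lower at 59.9 to 91.4 FPKM in a to d and 49.7 to 54.4 FPKM in e, f and g. Nrp1, a co-receptor of VEGF, was higher at 14.3 to 20.8 FPKM in a to d and 25.6 to 30.4 FPKM in e, f and g. Of the 14 genes of the VEGF and angiopoietin systems 3 were higher and 3 lower, so the systems had no common direction. Of 9 lymphatic markers 3 were lower, Pdpn, Flt4 and Nrp2, and 0 higher.

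In the Notch list, 3 of 11 were higher and 2 lower. The ligand Dll1 was at 1.38, 1.22, 2.03 and 1.02 FPKM in a to d and 3.95, 3.16 and 3.44 FPKM in e, f and g. The ligand Jag1 was lower at 56.4, 51.3, 66.8 and 59.8 FPKM in a to d and 31.2, 36.8 and 44.1 FPKM in e, f and g. Ligands thus differed in both directions. Of the targets, the feedback inhibitor Nrarp was higher at 4.24 to 10.1 FPKM in a to d and 10.9 to 37.1 FPKM in e, f and g, and Hes1 was lower at 40.3 to 45.6 FPKM in a to d and 29.2 to 33.2 FPKM in e, f and g. Of 29 genes of TGF-beta and BMP signalling 7 were higher (24.1%) and 1 lower (3.45%), with a median of 0.15, and of -0.00 over those whose deposited interval covers at least 90% of the gene. Acvrl1, the endothelial receptor ALK1 for BMP9 and BMP10, was at 70.9, 71.6, 70.01 and 56.6 FPKM in a to d and 106, 101 and 99.8 FPKM in e, f and g. Bmp6 was at 18.7, 15.1, 10.9 and 8.19 FPKM in a to d and 24, 39.1 and 37.1 FPKM in e, f and g, with f and g alike. Of the targets of BMP signals, Id2 was at 38.5 to 46.7 FPKM in a to d and 60.6 to 91.1 FPKM in e, f and g, and Id3 at 173 to 189.8 FPKM in a to d and 232 to 242 FPKM in e, f and g.

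Of 12 genes of leukocyte adhesion 4 were higher and 0 lower, with a median of 0.20, and these were Cd200, Vcam1, Sele and Bcam. For Bcam the sets were apart by only 0.01 log2. Sele, E-selectin, was at 9.32, 9.09, 8.28 and 7 FPKM in a to d and 60.1, 19.9 and 16.4 FPKM in e, f and g. Library e was highest, and f and g lay above a to d. Icam1 was at 129 to 159 FPKM in a to d and 151 to 220.5 FPKM in e, f and g, with overlapping sets. Of the 17 chemokines and targets of NF-kB 1 was higher, Cxcl16 at 40.1 to 42.8 FPKM in a to d and 52.1 to 85.6 FPKM in e, f and g, and 4 were lower. Tnfaip3, the inhibitor A20 of NF-kB, was at 31.5, 33.3, 27.9 and 31.3 FPKM in a to d and 10.5, 20.2 and 23.8 FPKM in e, f and g. Csf1, the growth factor of macrophages, was at 265 to 298 FPKM in a to d and 180.0 to 234 FPKM in e, f and g. The median of this list was -0.27, but 0.21 without f and 0.47 without g, and e (0.62 against a and c) and f (-0.38) lay on opposite sides of the WT libraries a and c.

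Of 7 genes of the adrenomedullin system, Adm included, 3 were higher and 0 lower. Adrenomedullin binds the receptor CALCRL together with RAMP2 or RAMP3. Calcrl was at 10.5, 20.3, 12.9 and 15.1 FPKM in a to d and 24.7, 48.8 and 29.7 FPKM in e, f and g. It was highest in WT f, and KO g lay above WT e. Ramp2 was at 123, 101, 104 and 91.5 FPKM in a to d and 158, 126 and 123 FPKM in e, f and g, and its sets were apart by less than 0.01 log2. Ramp3 was at 6.57 to 15.5 FPKM in a to d and 7.15 to 16.2 FPKM in e, f and g, with overlapping sets. Cpe, a carboxypeptidase that trims peptide hormone precursors, was at 276, 271, 364 and 303 FPKM in a to d and 617, 592 and 424 FPKM in e, f and g. Lyve1, which the study names, was at 36.8, 28.2, 104 and 40.1 FPKM in a to d and 157, 141 and 45.2 FPKM in e, f and g, so that the KO library g lay among a to d while WT e and f lay above all other libraries.

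Genes of coagulation and fibrinolysis had 3 of 16 lower and 0 higher, with a median of -0.22. Tfpi2 was among them, as was Plaur, the urokinase receptor, at 163 to 203 FPKM in a to d and 115 to 141 FPKM in e, f and g. Among vasoactive mediators 5 of 18 were higher and 1, Ptgs2, lower. Ece1, which makes endothelin, was at 105 to 153 FPKM in a to d and 156 to 188 FPKM in e, f and g. Ddah2, which degrades an inhibitor of nitric oxide synthases, was at 27.6 to 37.6 FPKM in a to d and 39 to 50.3 FPKM in e, f and g. In the list of YAP and TAZ targets 2 of 14 were higher and 3 lower. Ctgf was lower at 807, 793, 715 and 762 FPKM in a to d and 479.7, 638 and 636 FPKM in e, f and g, and so was Cyr61 at 491, 436, 434 and 399 FPKM in a to d and 312, 398 and 366 FPKM in e, f and g. These 2 are secreted matrix proteins, and for Cyr61 f lay just below the lowest of a to d. Of the same list Fstl1 was higher at 176 to 220.0 FPKM in a to d and 274 to 423 FPKM in e, f and g.

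Of 16 collagen genes compared 2 had the sets apart, both higher, which at 12.5% is below the 13.7% of all genes. The difference of medians was above 0 in 16 of 16, against 57.3% of all genes, whose own median was 0.04. Col5a1, a minor fibrillar collagen, was at 11.2, 13.8, 10.8 and 13.2 FPKM in a to d and 18.4, 33.7 and 22.2 FPKM in e, f and g. In the matrix list 6 of 32 were higher (18.8%) and 2 lower (6.25%), near the 13.7% and 7.9% of all genes. Bgn, the proteoglycan biglycan, was at 118, 136, 147 and 229 FPKM in a to d and 405, 544 and 316 FPKM in e, f and g. Lama5, a laminin chain of the mature endothelial basement membrane, was at 5.02, 2.61, 4.5 and 4.27 FPKM in a to d and 13, 9.45 and 8.65 FPKM in e, f and g. Tenascin C, Tnc, was lower at 276, 191, 319 and 249 FPKM in a to d and 128, 124 and 137 FPKM in e, f and g. For Tnc e, f and g were alike and a to d varied. Among metalloproteinases 5 of 23 were higher and 0 lower. Adamts1, which cleaves versican, was at 9.91, 11.4, 8.41 and 14.3 FPKM in a to d and 23.6, 34.4 and 21.5 FPKM in e, f and g. The median difference of this list was 0.27.

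In the Wnt list 4 of 15 were higher and 1 lower. Frzb, a secreted inhibitor of Wnt, was at 3.64, 5.52, 13.8 and 8.05 FPKM in a to d and 43.7, 70.1 and 25.9 FPKM in e, f and g. Its KO library g lay above all of a to d by less than WT e and f did. Fzd4, the receptor of norrin in vessels, was at 15.9 to 21.4 FPKM in a to d and 23.3 to 31.8 FPKM in e, f and g. A further Wnt receptor, Fzd6, was at 21.3 to 37.4 FPKM in a to d and 41.5 to 69.5 FPKM in e, f and g. The ligand Wnt5a was lower at 14.3 to 15.4 FPKM in a to d and 4.83 to 12.8 FPKM in e, f and g. Among guidance genes 5 of 25 were higher and 2 lower. Slit2 was at 6.96 to 15.9 FPKM in a to d and 18.4 to 28.2 FPKM in e, f and g, and its receptor Robo1 at 0.646 to 1.02 FPKM in a to d and 1.71 to 2.24 FPKM in e, f and g.

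Genes of protein folding in the endoplasmic reticulum had 5 of 17 higher and 0 lower, with a median difference of 0.19, and the difference of medians was above 0 in 17 of 17. In f and g, 15 of 17 lay above all of a to d, while e differed by a median of 0.04 from a and c. Xbp1, a transcription factor of the unfolded protein response, was at 51, 49.6, 48.9 and 45.8 FPKM in a to d and 90.6, 63.1 and 54.7 FPKM in e, f and g. Here e was highest. Dnajc3, a co-chaperone, was at 18 to 20.8 FPKM in a to d and 22.3 to 29.1 FPKM in e, f and g. Of 27 genes of the integrated stress response 6 were higher and 2 lower. Atf4, its transcription factor, was at 105, 91.6, 104 and 105 FPKM in a to d and 135, 126 and 122 FPKM in e, f and g, and its target Trib3 at 9.55 to 15.5 FPKM in a to d and 19.5 to 23.6 FPKM in e, f and g. Cytosolic chaperones had 3 of 16 lower and 0 higher, with Bag3 at 45.7 to 51.1 FPKM in a to d and 30.9 to 38.6 FPKM in e, f and g.

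In oxidative and metabolic genes the sets were apart for a few members. Hmox1, heme oxygenase, was at 858, 868, 869.9 and 951 FPKM in a to d and 316, 433 and 567 FPKM in e, f and g. Fth1, the ferritin heavy chain, was at 2275, 2353, 3240.1 and 2909 FPKM in a to d and 1137, 1596 and 1875 FPKM in e, f and g. Both were lowest in e, and both are targets of NRF2, but of 26 genes of that list 3 were lower and 1 higher. Sod3, the extracellular superoxide dismutase, was the higher one at 2.22 to 4.81 FPKM in a to d and 6.52 to 20.7 FPKM in e, f and g. Fabp4 and Fabp5, carriers of fatty acids, were both lower. Fabp4 was at 1197, 922, 1202 and 973 FPKM in a to d and 768, 665 and 483 FPKM in e, f and g, and Fabp5 at 129 to 176 FPKM in a to d and 66.1 to 91 FPKM in e, f and g. Of 25 genes of glycolysis and hypoxia 5 were lower and 2 higher. Pkm, pyruvate kinase, was at 567 to 606 FPKM in a to d and 421 to 481 FPKM in e, f and g. Ndrg1, a hypoxia target, was higher at 23.1 to 30.3 FPKM in a to d and 37.9 to 47.7 FPKM in e, f and g. The median of the list was -0.18, but 0.03 without f and 0.08 without g.

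Several lists hardly divided. Of 19 interferon-stimulated genes and of 8 genes of the IGF system 0 had the sets apart. Of 69 cytosolic ribosomal proteins 9 were higher and 5 lower, and of 23 genes of cholesterol synthesis 2 were higher and 0 lower. These shares lie near or below those of all genes. Of 26 integrin and focal adhesion genes 2 were higher (7.69%) and 4 lower (15.4%), the lower share being above the 7.9% of all genes.

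Markers of other cells were measured because a bead selection can leave other lung cells among the cells kept. Lymphocyte markers were at or near 0, with 6 of 9 at 0 in all libraries and a highest sum of 0.60 FPKM. Of 12 markers of lung epithelium Nkx2-1 and Ager were at 0 in all libraries. Sftpc and Sftpb, surfactant proteins of alveolar type II cells, were at 10.3 and 2.08 FPKM in e and at 0 in the 6 other libraries. The sums of the 12 were 14 to 19.7 FPKM in a to d and 14.4 to 25.8 FPKM in e, f and g, the highest in e, and most of each was the keratin Krt18 except in e, where it was 11.7 of 25.8 FPKM. Of 8 mesothelial markers Wt1 and Muc16 were at 0 in all, and the sums were 32.1 to 59.8 FPKM in a to d and 3.34 to 34.8 FPKM in e, f and g. Nearly all of the difference in e was in the keratin Krt19, at 59, 50.3, 27.4 and 36.2 FPKM in a to d and 1.75, 15.8 and 27.8 FPKM in e, f and g, with overlapping sets and the lowest value in e. Markers of red cells and platelets summed to 4.58 to 7.45 FPKM in a to d and 2.56 to 11.2 FPKM in e, f and g. Of 15 fibroblast markers 7 were compared and 2 were higher, Col3a1 and Mfap5, the latter with sets apart by only 0.01 log2. The sum of the 15 was 264 to 382 FPKM in a to d and 286 to 590.1 FPKM in e, f and g, with Mfap4 at 0 in all. Most of each sum was Thy1, except in e. Thy1 was at 257, 291, 228 and 261 FPKM in a to d and 160, 210 and 259 FPKM in e, f and g. Col1a1 was highest in e at 63.4 FPKM, against 10.2 to 32.9 FPKM elsewhere. Col1a2 was at 83.1 FPKM in e, 49.5 FPKM in d and 0 to 0.105 FPKM elsewhere. Decorin, Dcn, a proteoglycan of fibroblasts, was at 2.83, 3.04, 8.47 and 5.49 FPKM in a to d and 227, 6.04 and 7.21 FPKM in e, f and g, so that e alone was high. Of 15 smooth muscle and pericyte markers 11 were compared and 3 were higher, Acta2, Myl9 and Myh11. The sums were 426 to 804 FPKM in a to d and 675 to 822 FPKM in e, f and g. Acta2, smooth muscle actin, was at 68.2, 128, 107 and 194 FPKM in a to d and 238, 201 and 202 FPKM in e, f and g. Of 17 macrophage markers 7 were compared and 1, Cd68, was lower at 20.5, 20.9, 22.7 and 29.6 FPKM in a to d and 4.47, 10.5 and 11.9 FPKM in e, f and g. Cd14 was at 5.44, 4.23, 8.32 and 7.06 FPKM in a to d and 57.7, 10.5 and 4.21 FPKM in e, f and g. Its sets overlapped, with e far above the others. The difference of medians was above 0 for Cd14 and below 0 for the 6 other genes compared. The sums of the macrophage markers were 75.4 to 271 FPKM in a to d and 52.3 to 122 FPKM in e, f and g. Ptprc, the gene of CD45, and Itgam were at 0 in all. The part of these cells in the differences of collagens, adhesion molecules and other genes was not tested. In bulk RNA, fewer cells of a type and less RNA per cell cannot be told apart.

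Transcript length moved with the library sets. Genes were divided into 10 groups by the length of their longest transcript in GENCODE M21. The median difference was -0.04 in the group of shortest transcripts and reached 0.08 among long ones. For e against a and c it ran from -0.10 in the shortest group to 0.20 in the longest. With the median deviation of each length group taken off in each library, 1076 genes were higher and 1126 lower (48.9% higher). Mitotic genes then had 13 of 25 higher and a median of 0.74, mitochondrially encoded genes 7 of 13 lower and a median of -0.29, and Mcam a difference of 2.18. Of the 10 groups by mean FPKM, in the highest 7.22% of genes were higher and 19.9% lower. The part of length and abundance in the other differences was not tested.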

How the data were processed

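RNA was sequenced from 7 MLEC libraries, 4 WT and 3 KO, grouped by genotype from their titles and into library sets by their letters. The authors deposited FPKM per gene and library, after Cutadapt, TopHat2 2.0.6 and Cufflinks on GRCm38. The table also holds the authors' group values, fold changes and test results from Cuffdiff, which were not used. FPKM were taken as deposited, and log2(FPKM + 1) was computed. Repeated entries with the same 7 values (30) were merged. Genotypes were tested with limma 3.58.1 with a trend (R 4.3.3, statmod 1.5.0) and Benjamini-Hochberg adjustment, and the code was tested on simulated data. Python 3.11.15, numpy 2.4.6, pandas 2.3.3 and matplotlib 3.10.9 made the tables and figures.

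The library sets, genes and lists were chosen with earlier results of these data known. Sets apart means that all of e, f and g lie above, or below, all of a to d, and the gap is the distance between the nearest libraries. Differences are those of set medians, and differences within WT or KO are of means. Named were Mcam, genes that the study names, the 15 largest gaps in each direction, up to 5 members of each of 54 lists (10 of markers and 44 of programmes) by gap, and the highest markers of other cells. A few of the genes so chosen are not reported here. Other genes named as examples with overlapping sets, and the members of the mitosis and cell marker lists beyond these, were chosen after their values were seen.

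Low values came in steps of reads, and 68.7 to 72.4% lay within 0.1 read of a whole number at the estimated depth, so counts were not recovered. An exact 0 can be a failed estimate, and 1680 entries with a mean of at least 1 FPKM were left out for a 0. Coordinates are those of GENCODE M21, since for 37.0% of genes the deposited interval covers under 10% of the gene. Whether their FPKM refer to the whole gene or to that interval is not given in the sources used here. Alternatives were a pseudocount of 0.1, filters at 0.1 and 5 FPKM, zeros allowed, TPM, quantile normalization, trimmed mean factors, a gap of 0.5, each library left out and, for limma, the set as a term, no trend and array weights. Chosen after seeing the data were repeated entries counted separately, the length trend removed, and genes with an interval of at least 90% of the gene.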

Additional observations from a re-analysis of the deposited data

Results flagged for a closer look

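Among the 34 genes looked at in the WT libraries, those of the largest gaps and those the study names, 1 had a library far from the other 3: Prl2c2, a proliferin, measured 33.4 FPKM in library e, below the 109 to 124 FPKM of WT a, c and f. The rule's rate of about 1 of 20 genes holds for unselected values. Genes of the largest gaps have WT e and f on one side of a and c, so that rate does not apply to them. Its KO values were 216 to 275 FPKM. Prl2c2 and Prl2c3 are near-identical copies, and how reads shared by them were divided is not given in the sources used here.

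Of 49 lists with at least 4 genes, 14 had WT and KO medians of opposite sign. In 1 of them the levels of the single libraries did not overlap in either genotype: for positional transcription factors (HOX, TBX, FOXF and MEOX genes), e and f lay above both a and c in WT, and g lay below both b and d in KO. This list had a median difference of 0.18 in WT and -0.32 in KO, over 16 genes. The list's level was 0.28 and 0.06 in WT e and f against 0.00 and 0.02 in a and c, and -0.21 in KO g against -0.03 and 0.07 in b and d. The difference between the genotypes was not tested, and the KO side has 1 library.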

How the results depend on the processing

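The counts of genes with the library sets apart (1501 higher and 867 lower) were 56 and 38 with a gap of at least 0.5, and 759 and 467 among the 5617 genes with a deposited interval of at least 90% of the gene, where the shares were 13.5% and 8.31%. Fewer genes or a stricter rule made these counts smaller by construction. Leaving out each library in turn gave 1712 to 2557 higher and 1009 to 1607 lower genes, since fewer libraries separate more easily, and the highest counts were those without e. Without g, 1529 were lower. The other alternatives gave counts within 1.5 times. The higher and lower counts were 1965 and 655 for TPM, 1102 and 1090 after quantile normalization, 1077 and 1241 with trimmed mean factors, and 1076 and 1126 with the length trend removed.

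Genotype calls in limma were 0, and 7 with zeros allowed, where genes listed at 0 in some libraries enter. With each library left out they were 0 to 1, and the 1 was Prl2c3 without e, a gene named after its value was seen. Array weights, no trend and the set as a term gave 0 calls each. The difference of Mcam was 2.14 to 2.32 with each library left out, except for 1.80 without e and 1.85 without f, and 2.18 to 2.28 under every other setting.

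For 49 lists, 755 of 831 medians moved by less than the spread between libraries of a set and 76 by more. Among the 33 lists with a median of at least 0.1 in size, 9 changed sign or came to 0 under at least 1 alternative, 14 times in all. These include chemokines and NF-kB targets (0.21 without f, 0.47 without g, against -0.27), glycolysis and hypoxia (0.03 and 0.08 against -0.18), and, among genes with an interval of at least 90%, tip cells (0.06 against -0.26) and TGF-beta and BMP signalling (-0.00 against 0.15). ER chaperones had 2 of 17 higher with trimmed mean factors and 8 of 17 for TPM, and vascular markers 5 higher and 4 lower with trimmed mean factors.

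No paired analysis was run because the titles carry a letter for each library and no number shared by WT and KO. The libraries closest in their values (a with b, c with d, f with g) were not used as pairs, since that pairing would come from the values and not from the labels. At 6.8 to 8.15 M estimated reads per library, depth limits genes near 1 FPKM most.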

Other observations

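Some endothelial and inflammatory genes set library e apart from the 6 others. Among those given here only Tek also had the sets apart, with f at 17.1 FPKM just above a at 16.8 FPKM. Emcn, the sialomucin endomucin of veins and capillaries, was at 571 FPKM in e and at 1211 to 1337 FPKM in the others. Tek, the angiopoietin receptor TIE2, was at 44.5 FPKM in e and at 12.1 to 20.6 FPKM elsewhere. Flt1, a VEGF receptor, was at 41.3 FPKM in e and at 15.6 to 20.1 FPKM elsewhere. Mmrn1, of lymphatic endothelium, was at 18.3 FPKM in e and at 0.506 to 3.67 FPKM elsewhere, and Prox1, the lymphatic transcription factor, at 13.1 FPKM in e and at 3.87 to 5.79 FPKM elsewhere. Il6, an inflammatory cytokine, was at 29.8 FPKM in e and at 2.12 to 6.61 FPKM elsewhere, and Lcn2, lipocalin 2, at 72.4 FPKM in e and at 1.38 to 17.8 FPKM elsewhere. These genes were chosen after their values were seen.

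Genes listed at 0 in a library were left out of the comparison. Vwf, von Willebrand factor, was at 89.5 FPKM in e and 9.81 FPKM in f and was listed at 0 in the other 5 libraries. Ecscr, an endothelial surface protein, was listed at 0 in d and f and was at 228 to 293 FPKM in the other 5. Prom1, which the study names, was at 20.8 FPKM in e, 4.71 FPKM in f, 5.24 FPKM in a and 6.55 FPKM in c. It was listed at 0 in b, d and g, which are all of the KO libraries. In all, 19 entries were listed at 0 in e, f and g while above 0 in a to d with a mean there of at least 1 FPKM, and 8 entries were the opposite.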
